A study of Mus musculus with 6 samples.

Results

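The amino acid transporters examined here are the genes of 7 solute carrier families (SLC1, SLC3, SLC6, SLC7, SLC36, SLC38 and SLC43) in the expression table of a study of CD44 in mouse white fat. Members were taken by symbol. The pattern matched 64 symbols, 2 of which were not analysed here, and left 62 members among the 22322 genes of the table. RNA was sequenced from epididymal adipose tissue in 3 CD44 KO and 3 wild type samples, all 6 from mice fed a high-fat diet for 17 weeks, so no lean animals enter the comparison. CD44 is a surface receptor for hyaluronan, and the study asked what it does in white fat. The labels give neither the age, the strain background nor the way the allele was made, and they do not say whether a knockout was confined to a cell type. Nothing in the labels says that the 3 libraries of a genotype came from separate animals, so p-values measure the spread between these libraries. All 62 members were protein coding in GENCODE M21. The gene ontology terms in the deposited table place 51 of the 62 at the plasma membrane. The other 11 include Slc43a1, Slc43a3, Slc36a4, the lysosomal carriers Slc38a7 and Slc38a9, the Golgi protein Slc38a10, and Slc7a6os. Slc7a6os shares only the prefix of its neighbour's symbol and is no carrier.

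Amino acids cross the plasma membrane on carriers that differ in the amino acids they accept and in what drives them. SLC1, SLC6 and SLC38 proteins mostly use the sodium gradient to concentrate glutamate, glutamine, small neutral amino acids, taurine, glycine or creatine. The SLC7 light chains pair with an SLC3 heavy chain, which brings them to the surface, and exchange an amino acid inside the cell for another outside. SLC43 proteins let large neutral amino acids pass without sodium, and SLC36 proteins use protons, several of them on lysosomes, where amino acid levels are reported to the kinase complex mTORC1. Fat cells take up and release glutamine, serine, alanine and branched-chain amino acids in large amounts, and Slc7a10 and Slc36a2 are used as surface markers of white and brown adipocytes. Macrophages carry their own set, among which the arginine exchanger Slc7a7 is a known example.

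The libraries differed in several lists of cell type markers. Total expected counts ran from 15543317 to 18765009. Cd44 had 28, 50 and 34 expected counts in CD44 KO and 3091, 10580 and 6000 in wild type, so the libraries matched their genotypes. The defining adipocyte markers were abundant in every library. The 15 mature adipocyte markers summed to 48960 to 74060 CPM (counts scaled to library size) in CD44 KO and 14810 to 42410 CPM in wild type. Much of each sum came from Car3, Fabp4 and Cfd, of which Fabp4 overlapped between the genotypes. Of the 15 markers 13 had a positive log2 fold change and 2, Lep and Dgat2, a negative one. The 15 pan-macrophage markers summed to 4939, 324 and 1047 CPM in CD44 KO replicates 1 to 3. In wild type replicates 1 to 3 they summed to 4805, 10470 and 8434 CPM. The sums of CD44 KO replicate 1 and wild type replicate 1 were close, and Lyz2 gave the largest part of both, 2309 and 1767 CPM. Cd68, Aif1, Csf1r, Ptprc, Laptm5, C1qa, C1qb and C1qc were lower in every CD44 KO library than in any wild type library. The other markers of this list overlapped between the genotypes. The 15 epididymis epithelium markers summed to 14620 CPM in CD44 KO replicate 2 and to at most 15.6 CPM elsewhere, with 7 of them above 50 CPM in that library and 8 under 1 CPM. The 10 mesothelial markers summed to 487 CPM in the same library, against 55 to 92.1 CPM in the other CD44 KO libraries and 6.37 to 17.4 CPM in wild type. Most of the 487 CPM came from the keratin genes Krt18 (221 CPM) and Krt8 (196 CPM). The next marker was Upk3b, at 19.0 CPM there and 22.0 CPM in CD44 KO replicate 1. The 10 fibroblast and progenitor markers summed to 3182, 944 and 2010 CPM in CD44 KO and 5686, 8057 and 6932 CPM in wild type. These sums did not overlap. Of the 10 markers 7 were lower at an unadjusted edgeR p under 0.05. Dcn and Dpp4 overlapped between the genotypes, and Dpp4 had a positive log2 fold change (0.31). At that p 4 of the 15 pan-macrophage markers were lower and all 10 mesothelial markers higher. Of the 15 mature adipocyte markers 9 were higher and 1 lower. Among all genes tested 16.3% were higher and 14.7% lower at that p. The part that fibroblasts and progenitors play in the transporter results was not tested. In whole tissue, fewer cells of a type cannot be told apart from less RNA per cell.

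Slc1a5 was by far the most abundant transcript among the 62 members in this fat. It encodes ASCT2, a sodium-dependent exchanger of glutamine and other neutral amino acids. Its FPKM (a level per transcript length) was 563, 605 and 684 in CD44 KO and 492, 191 and 222 in wild type. This single gene supplied 46.9% ± 0.764 (SD, n = 3) of the summed FPKM of the 62 members in CD44 KO and 28.0% ± 10.7 in wild type. Without Slc1a5 the summed FPKM of the other members was 698 ± 48.9 in CD44 KO and 737 ± 8.49 in wild type, a difference smaller than the spread in CD44 KO. Next in mean FPKM over the 6 libraries came Slc7a10 (104), Slc3a2 (98.0), Slc36a2 (62.2), Slc43a3 (59.7), Slc6a6 (59.2), Slc38a10 (47.0), Slc38a6 (44.6), Slc6a13 (38.2) and Slc1a3 (37.95). Neighbours in this order, such as Slc43a3 and Slc6a6, overlapped in their values across libraries. The 10 most abundant members supplied 88.5% ± 2.57 of the summed FPKM in CD44 KO and 81.7% ± 6.93 in wild type.

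**Figure D1:**
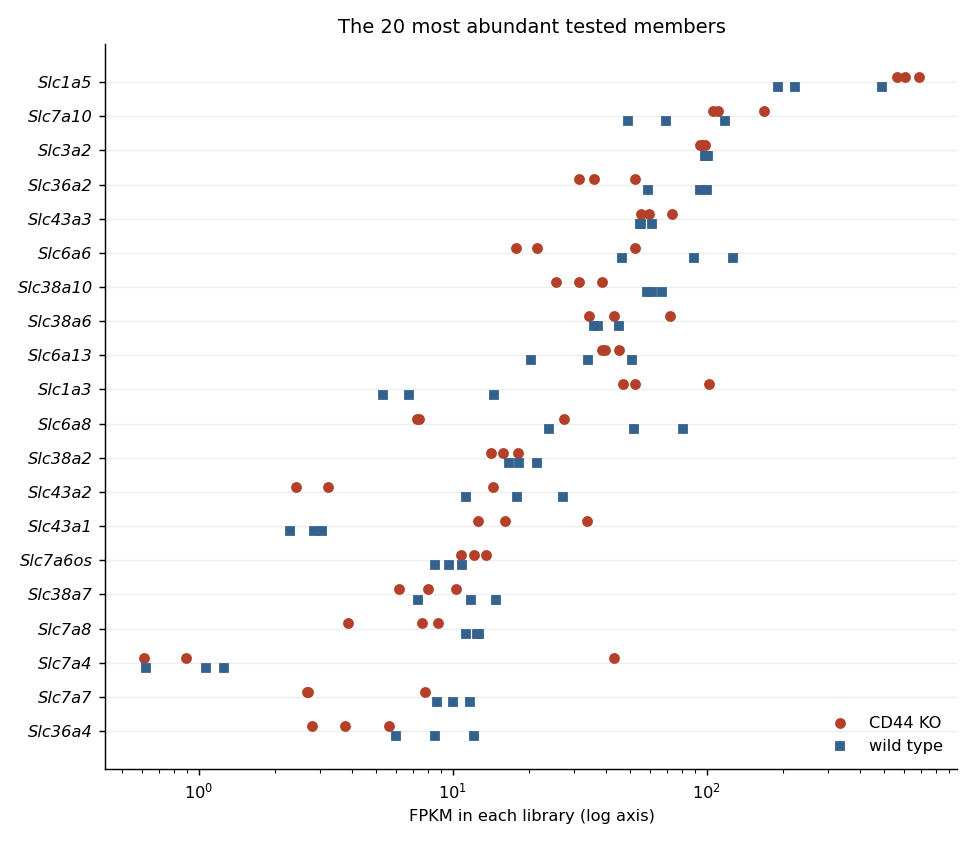
FPKM of the 20 most abundant tested members in each library, on a log axis, with circles for the 3 CD44 KO libraries above squares for the 3 wild type libraries. Slc1a5 lies to the right of the other members in every library, Slc1a3 and Slc43a1 are the members whose CD44 KO points lie far to the right of wild type, and Slc7a4 has 1 CD44 KO point far from the other 5.

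Of the 62 members 37 had enough reads to be tested, and edgeR's quasi-likelihood test with Benjamini-Hochberg adjustment over 13829 genes called 2 higher and 0 lower in CD44 KO. The 2 that rose were Slc43a1 and Slc1a3. Among all genes tested 1.74% were called higher and 0.882% lower, 2.62% in both directions together, where the 2 members make 5.41% of the 37. At an unadjusted edgeR p under 0.05 there were 9 members on the higher side and 10 on the lower side. That is 51.4% of the 37, where 31.0% of all genes tested had such a p. In 17 of the 37 (45.9%) the libraries of the genotypes did not overlap, against 37.8% of all genes tested. These were 10 higher and 7 lower, where the shares of all genes were 19.7% and 18.1%. Slc38a5 and Slc6a17 are among these 10 and among the 9 above. They had 4, 1 and 0 and 12, 7 and 6 counts in wild type, so only CD44 KO gave them enough reads to be tested. Their place on the higher side is in part set by that filter. CD44 KO replicate 1 lay within the wild type range in 14 members (37.8%), replicate 2 in 6 and replicate 3 in 7, where the shares of all genes tested were 42.3%, 24.6% and 25.1%. The median log2 fold change of the 37 was 0.17, beside 0.03 for all genes tested, and 19 were positive and 18 negative. Leaving out CD44 KO replicate 2 gave a median of -0.24, CD44 KO replicate 3 one of -0.004 and wild type replicate 2 one of 0.017. DESeq2 called 8 members higher and 8 lower (9.92% and 9.74% of the genes it adjusted), and the authors' deposited table has 8 and 8 at an adjusted p under 0.05 (6.07% and 5.94% of its genes). All 16 of the members so called by DESeq2 are among the 16 in the authors' deposited table. That table rests on the same counts, and the submitters' notes list DESeq2, so the match is no separate support for these calls. DESeq2 called Slc43a1, Slc1a3, Slc1a5, Slc1a1, Slc6a9, Slc6a17, Slc38a5 and Slc3a1 higher, and Slc38a10, Slc38a1, Slc36a2, Slc36a1, Slc36a4, Slc7a7, Slc6a6 and Slc6a8 lower. Slc3a1 had no count in wild type, so it could be called only on the higher side, here and without CD44 KO replicate 1 below. The edgeR counts turned on single libraries. Leaving out CD44 KO replicate 1 gave 5 higher and 7 lower (7.13% and 9.65% of all genes), and leaving out CD44 KO replicate 2 gave 1 and 0 (0.457% and 0.257%). Leaving out wild type replicate 1 gave 3 and 0 (1.74% and 0.435%). No member was called when CD44 KO replicate 3 (0.0352% and 0.0141% of all genes), wild type replicate 2 (0.0141% and 0.0492%) or wild type replicate 3 (0.0% and 0.0%) was left out.

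**Figure D2:**
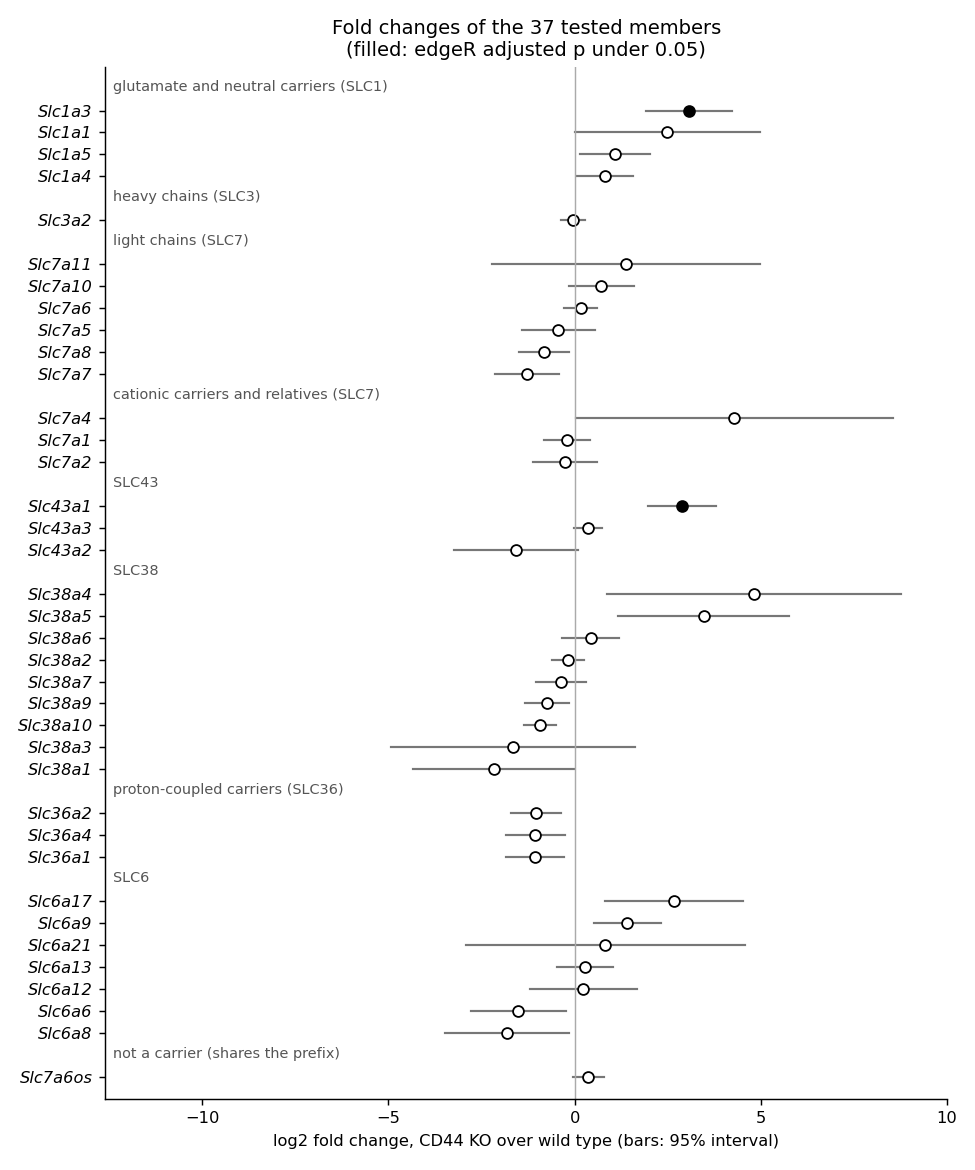
Log2 fold change, CD44 KO over wild type, of the 37 tested members by family, with 95% intervals from the edgeR fit as bars. Filled points mark Slc43a1 (2.88) and Slc1a3 (3.07), the members with an adjusted p under 0.05. All 4 SLC1 members lie to the right of 0 and all 3 SLC36 members to the left.

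Slc43a1 encodes LAT3, a sodium-independent carrier of leucine, isoleucine, valine, phenylalanine and methionine. It had 30.0, 39.5 and 73.5 CPM in CD44 KO and 7.72, 5.39 and 6.26 CPM in wild type. Every CD44 KO library was above every wild type library, and CD44 KO replicate 3 was the highest. The increase was 7.38-fold (95% interval 3.93 to 13.8), a log2 fold change of 2.88 (SE 0.38, adjusted edgeR p 0.0305). The call was kept without CD44 KO replicate 1, CD44 KO replicate 2 or wild type replicate 1 (adjusted edgeR p 0.0196, 0.0497 and 0.0488). It was lost without CD44 KO replicate 3, wild type replicate 2 or wild type replicate 3 (0.0711, 0.139 and 0.221), where the log2 fold change was 2.42, 2.76 and 2.85, and over the 12 settings the adjusted p ran from 1.81e-10 to 0.221. Slc43a1 (ENSMUSG00000027075) lies on the plus strand of chromosome 2 from 84838850 to 84863594 in GRCm38. Cd44 is on the same chromosome 17.95 Mb away.

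Slc1a3 encodes GLAST, a sodium-driven carrier of glutamate and aspartate best known from astrocytes. It had 190, 230 and 423 CPM in CD44 KO, against 52.7, 22.1 and 25.4 CPM in wild type. The groups were far apart, and as with Slc43a1 the highest library was CD44 KO replicate 3. The increase was 8.41-fold (95% interval 3.79 to 18.7), a log2 fold change of 3.07 (SE 0.48, adjusted edgeR p 0.039). Per length, Slc1a3 averaged 67.0 ± 30.4 FPKM in CD44 KO and 8.88 ± 4.98 FPKM in wild type (SD, n = 3 each). The call was kept without CD44 KO replicate 1 or wild type replicate 1 (adjusted edgeR p 0.0226 and 0.0379). It was lost without CD44 KO replicate 2 (0.0643), CD44 KO replicate 3 (0.103), wild type replicate 2 (0.151) or wild type replicate 3 (0.236), with log2 fold changes of 2.65 to 3.20 and a range over the 12 settings of 1.87e-09 to 0.236. Slc1a3 (ENSMUSG00000005360) lies on the minus strand of chromosome 15 from 8634124 to 8710764. The adipocyte marker sums given above also had their highest value in CD44 KO replicate 3 and did not overlap between the genotypes. Some single markers, such as Adipoq, Cidec and Fabp4, did overlap, and a link to Slc1a3 was not tested.

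The promoters of both called members are shown because these are the transporters that rose, with that of Slc38a10, which had the lowest p on the lower side, and that of Slc36a1, whose protein works with mTORC1. The sequences are from RefSeq (GRCm38.p6) and run from 250 bases before to 50 bases after the annotated start. For Slc43a1 the window lies inside the GENCODE gene, which starts at 84838850, so its matches belong to a different annotated start. Capitals mark any match, on either strand, to 6 short motifs: TGATGNAA (the ATF4 response element), TCACGTGA (the CLEAR element of TFEB), CACGTG (the E-box, which the CLEAR element contains), CCAAT (the box of that name), TATAAA (the TATA box) and GGGCGG (the GC box).
Slc43a1, chr2:84840073-84840372, plus strand: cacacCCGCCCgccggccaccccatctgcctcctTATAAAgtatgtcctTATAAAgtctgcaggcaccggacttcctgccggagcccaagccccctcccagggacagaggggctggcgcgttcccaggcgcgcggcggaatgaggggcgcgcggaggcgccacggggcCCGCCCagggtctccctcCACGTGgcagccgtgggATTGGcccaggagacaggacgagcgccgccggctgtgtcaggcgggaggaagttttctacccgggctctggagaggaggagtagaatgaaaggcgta
Slc1a3, chr15:8710758-8711057, minus strand: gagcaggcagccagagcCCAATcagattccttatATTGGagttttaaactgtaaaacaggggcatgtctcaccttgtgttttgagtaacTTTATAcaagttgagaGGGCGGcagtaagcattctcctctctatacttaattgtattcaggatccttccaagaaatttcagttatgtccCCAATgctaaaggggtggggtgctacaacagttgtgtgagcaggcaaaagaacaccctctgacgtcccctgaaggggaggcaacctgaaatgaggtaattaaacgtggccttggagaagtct
Slc38a10, chr11:120151302-120151601, minus strand: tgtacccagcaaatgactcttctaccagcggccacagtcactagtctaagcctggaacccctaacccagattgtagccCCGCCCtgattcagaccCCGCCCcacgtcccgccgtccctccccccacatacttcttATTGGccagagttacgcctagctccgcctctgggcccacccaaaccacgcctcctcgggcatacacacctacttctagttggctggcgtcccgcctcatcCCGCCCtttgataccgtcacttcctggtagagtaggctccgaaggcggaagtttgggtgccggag
Slc36a1, chr11:55204090-55204389, plus strand: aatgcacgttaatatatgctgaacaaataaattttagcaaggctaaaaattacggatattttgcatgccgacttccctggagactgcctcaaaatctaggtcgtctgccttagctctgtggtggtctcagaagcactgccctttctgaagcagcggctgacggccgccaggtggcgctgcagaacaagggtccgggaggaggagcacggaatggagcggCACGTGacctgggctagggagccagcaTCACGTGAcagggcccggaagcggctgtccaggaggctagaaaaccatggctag
Slc43a1 had 2 matches to TATAAA, and Slc1a3 had 1, in windows of which 13.6% of all 32851 hold a match. CCAAT matched 3 times in Slc1a3, once in Slc43a1 and once in Slc38a10, and is in 37.4% of all windows. Slc43a1 and Slc36a1 held CACGTG (7.15% of all windows), and 1 of the matches in Slc36a1 was also TCACGTGA, which is in 0.974% of all windows. TGATGNAA was in none of the 4 and in 3.97% of all windows. Of the 44 members with a promoter in the table, 4 (9.09%) held TGATGNAA, and these were Slc1a4, Slc6a21, Slc7a7 and the cystine carrier Slc7a11. GGGCGG was in 29 of the 44 members (65.9%), against 35.7% of all windows. Members can have more than 1 window, and a match is a string of letters, not a measured site.

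The other SLC1 carriers had positive log2 fold changes without an edgeR call, while DESeq2 called Slc1a5 and Slc1a1 higher (DESeq2 adjusted p 0.0365 and 0.0349). Slc1a5 had 1538, 1787 and 1902 CPM in CD44 KO and 1339, 527 and 602 CPM in wild type. The groups did not overlap, but wild type replicate 1 lay close to the CD44 KO libraries. The log2 fold change was 1.08 (SE 0.40, adjusted edgeR p 0.13), and without wild type replicate 1 it was 1.64 and was called (0.0422, in a range of 0.0365 to 0.355 over the settings). That library also had the highest adipocyte marker sum of the wild type group, 42410 CPM against 14810 and 23860 CPM. Slc1a4, which encodes the serine and alanine exchanger ASCT1, had 8.84, 15.3 and 9.32 CPM in CD44 KO and 6.78, 4.63 and 7.51 CPM in wild type (log2 fold change 0.82, SE 0.31, adjusted edgeR p 0.139). Without CD44 KO replicate 2 its log2 fold change was 0.53. Slc1a1, the glutamate and cysteine carrier EAAT3, had 57.6 CPM in CD44 KO replicate 2, with 8.01 and 12.4 CPM in the other CD44 KO libraries and 10.3, 1.89 and 1.88 CPM in wild type. Its log2 fold change was 2.48 (SE 1.03, adjusted edgeR p 0.162) and 1.13 without that library.

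The heavy chain Slc3a2 had close values in both genotypes, and edgeR called none of the 6 tested light chains (0 higher and 2 lower at an unadjusted p under 0.05, 0 higher and 1 lower by DESeq2). The shares of all genes were 16.3% higher and 14.7% lower at that unadjusted p, and 9.92% and 9.74% by DESeq2. Slc3a2, also called 4F2hc or CD98, had 168, 183 and 166 CPM in CD44 KO and 171, 180 and 181 CPM in wild type. The log2 fold change was -0.04 (SE 0.14, adjusted edgeR p 0.861), and its 95% interval, from -0.37 to 0.29 on that scale, spans 0. Among its partners the highest level was that of Slc7a10, which encodes Asc-1, a carrier of serine, glycine and alanine. Slc7a10 had 110, 106 and 168 FPKM in CD44 KO and 118, 49.2 and 69.4 FPKM in wild type. The groups overlapped through wild type replicate 1 (log2 fold change 0.72, SE 0.36, adjusted edgeR p 0.219), and without that library the log2 fold change was 1.17.

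Slc7a7 and Slc7a8 stood lower in all 3 CD44 KO libraries. Slc7a7, the light chain y+LAT1 that exports cationic amino acids from epithelia and is present in macrophages, had 12.8, 5.89 and 5.63 CPM in CD44 KO and 17.0, 19.2 and 22.7 CPM in wild type. The log2 fold change was -1.28 (SE 0.36, adjusted edgeR p 0.0892), and without CD44 KO replicate 1 it was -1.77 and was called (0.0207, in a range of 0.0159 to 0.294). Slc7a8, the light chain LAT2 for neutral amino acids, had 35.3, 16.9 and 31.2 CPM in CD44 KO, against 50.9, 51.0 and 45.1 CPM in wild type, a log2 fold change of -0.82 (SE 0.28, adjusted edgeR p 0.116). Both genes lie on the minus strand of chromosome 14, 304.4 kb apart. For Slc7a7 the CD44 KO library nearest to wild type was replicate 1. That library also had the highest macrophage and the highest fibroblast and progenitor marker sums of CD44 KO, 4939 and 3182 CPM. A link to either cell type was not tested.

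The other light chains did not separate the genotypes. LAT1, encoded by Slc7a5 and the best known leucine carrier of growing cells, was scarce in this fat, with 2.47, 2.99 and 1.04 FPKM in CD44 KO and 2.5, 3.22 and 3.45 FPKM in wild type (log2 fold change -0.44, SE 0.41, adjusted edgeR p 0.484). Slc7a6 (y+LAT2) stood at 0.17 (SE 0.18, adjusted edgeR p 0.556). Slc7a11, the cystine and glutamate exchanger xCT, had 1.19, 22.5 and 0.583 CPM in CD44 KO and 0.472, 6.68 and 2.14 CPM in wild type. It was highest in CD44 KO replicate 2, and its log2 fold change was 1.38 (SE 1.49, adjusted edgeR p 0.545) with that library and -1.80 without it. The cationic carriers Slc7a1 and Slc7a2, which import arginine and lysine, stood at -0.21 (SE 0.26) and -0.26 (SE 0.36) with overlapping libraries and adjusted edgeR p of 0.598 and 0.638.

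The other SLC43 members, Slc43a2 and Slc43a3, had log2 fold changes of opposite sign and no edgeR or DESeq2 call with all libraries. Slc43a2, the related carrier LAT4 for branched-chain amino acids, phenylalanine and methionine, had 68.4, 13.2 and 18.2 CPM in CD44 KO and 61.4, 148 and 89.3 CPM in wild type. CD44 KO replicate 1 lay within the wild type range, and the log2 fold change was -1.58 (SE 0.69, adjusted edgeR p 0.174). Without CD44 KO replicate 1 it was -2.67 and was called (0.0243, in a range of 0.0243 to 0.393). Slc43a3, a carrier of purine bases and not of amino acids, lies 73.0 kb from Slc43a1 and on the same strand. It had 132, 152 and 167 CPM in CD44 KO, against 113, 113 and 126 CPM in wild type. The groups did not overlap, with a log2 fold change of 0.36 (SE 0.15, adjusted edgeR p 0.169).

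**Figure D3:**
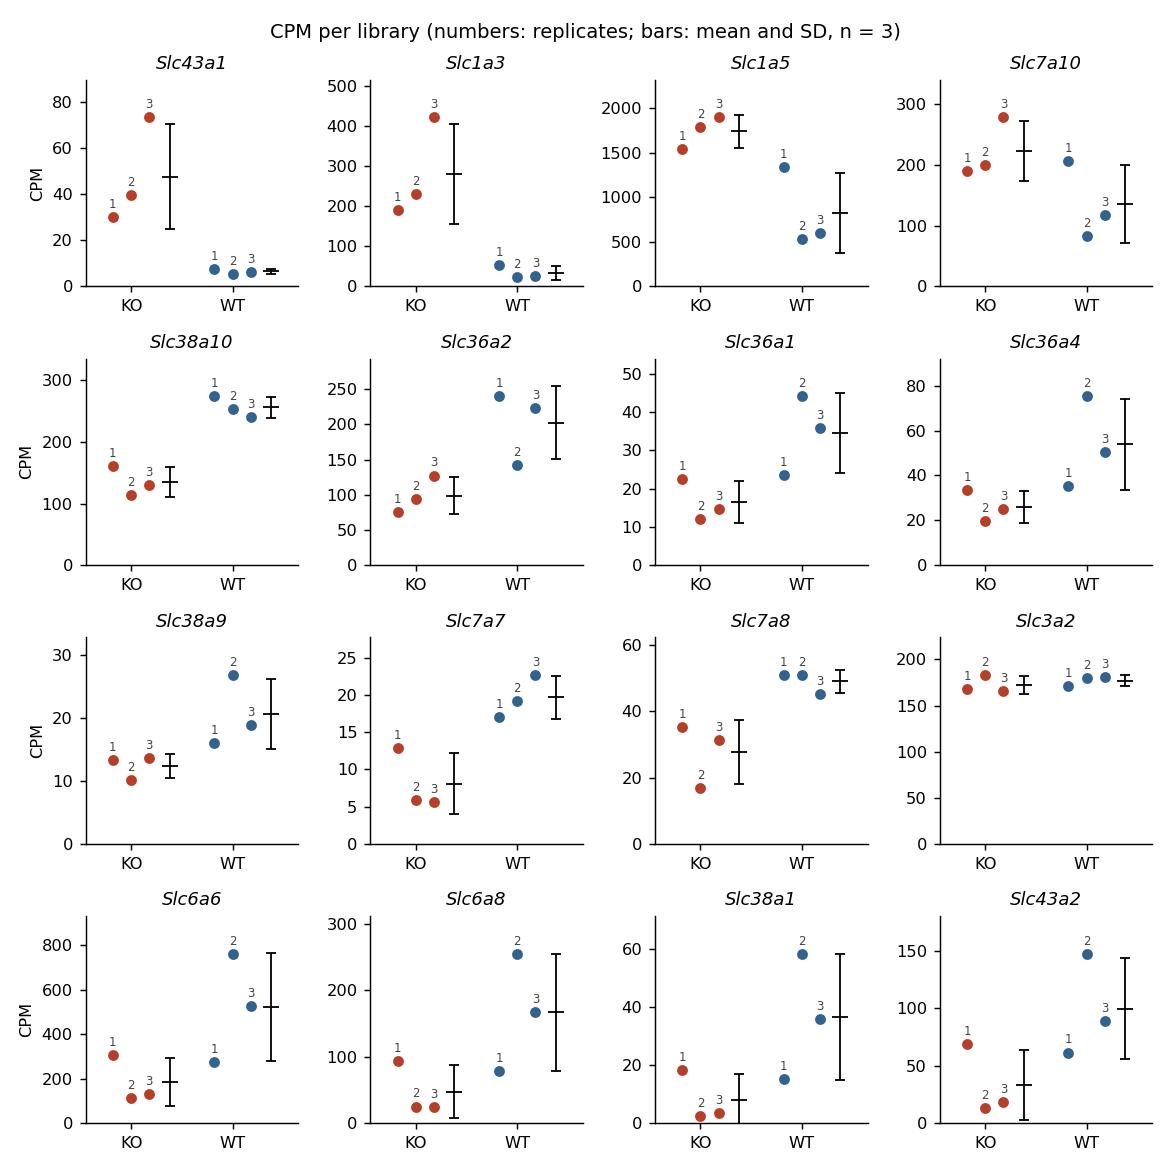
CPM of 16 members in each library, with CD44 KO (red, left) and wild type (blue, right), replicate numbers beside the points, and the mean and SD (n = 3) as bars cropped at 0. Slc43a1 and Slc1a3 are higher in all CD44 KO libraries, Slc3a2 is level, and in Slc6a6, Slc6a8, Slc38a1 and Slc43a2 CD44 KO replicate 1 lies among the wild type libraries.

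All 3 tested proton-coupled carriers of the SLC36 family stood lower in every CD44 KO library. None was called by edgeR (3 of 3 lower at an unadjusted p under 0.05), and DESeq2 called all 3 lower (DESeq2 adjusted p 0.00692 for Slc36a2, 0.0267 for Slc36a1 and 0.0288 for Slc36a4). The shares of all genes on the lower side were 14.7% at that unadjusted p and 9.74% by DESeq2. Slc36a2, which encodes the glycine and proline carrier PAT2 and marks brown adipocytes, had 75.6, 93.9 and 127 CPM in CD44 KO and 240, 143 and 224 CPM in wild type. The log2 fold change was -1.03 (SE 0.28, adjusted edgeR p 0.0855). Slc36a1 encodes the lysosomal carrier PAT1 and stood at 22.5, 12.1 and 14.7 CPM in CD44 KO and 23.5, 44.2 and 35.7 CPM in wild type, a log2 fold change of -1.07 (SE 0.32, adjusted edgeR p 0.0989). Its CD44 KO replicate 1 and wild type replicate 1 were almost level, and without CD44 KO replicate 1 it was called at -1.36 (0.0397, in a range of 0.0267 to 0.294). Slc36a4, a carrier of proline and tryptophan, had 33.4, 19.5 and 24.9 CPM in CD44 KO, against 35.4, 75.5 and 50.6 CPM in wild type (log2 fold change -1.05, SE 0.33, adjusted edgeR p 0.103). In each of the 3 genes the libraries of the genotypes did not overlap, as in 18.1% of all genes tested in that direction. Slc36a2 and Slc36a1 are neighbours on chromosome 11, 19.3 kb apart on opposite strands.

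Among the 9 tested SLC38 members 3 were positive and 6 negative, and none was called by edgeR (2 higher and 3 lower at an unadjusted p under 0.05, 1 higher and 2 lower by DESeq2). Among all genes tested 16.3% were higher and 14.7% lower at that unadjusted p, and DESeq2 called 9.92% and 9.74%. The lowest p belonged to Slc38a10, a Golgi member whose substrates are little known. It had 160, 114 and 131 CPM in CD44 KO and 275, 253 and 240 CPM in wild type, so both groups had a narrow spread and a wide gap lay between them. The log2 fold change was -0.92 (SE 0.18, adjusted edgeR p 0.0529), a value just above the threshold, and -1.07 with a call without CD44 KO replicate 1 (0.0266, in a range of 0.000145 to 0.249). Slc38a10 (ENSMUSG00000061306) lies on the minus strand of chromosome 11 from 120103960 to 120151346. Slc38a9, the arginine sensor of lysosomes, had 13.4, 10.2 and 13.7 CPM in CD44 KO and 16.1, 26.9 and 19.0 CPM in wild type (log2 fold change -0.74, SE 0.25, adjusted edgeR p 0.114). Slc38a7, which exports glutamine and asparagine from lysosomes, overlapped between the genotypes at -0.37 (SE 0.28, adjusted edgeR p 0.381).

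The plasma membrane members of SLC38 did not go together. Slc38a2, the sodium-coupled carrier SNAT2 that many cells induce when amino acids run short, had 72.7, 89.9 and 66.2 CPM in CD44 KO and 76.6, 100 and 83.1 CPM in wild type, with overlapping libraries (log2 fold change -0.18, SE 0.18, adjusted edgeR p 0.504). Slc38a1, its close relative SNAT1, had 18.3, 2.40 and 3.30 CPM in CD44 KO and 14.98, 58.3 and 35.6 CPM in wild type. CD44 KO replicates 2 and 3 were far below every wild type library and replicate 1 was among them, so that the log2 fold change of -2.18 (SE 0.89, adjusted edgeR p 0.159) became -3.67 with a call without replicate 1 (0.026, in a range of 0.026 to 0.365). Slc38a5, a carrier of glutamine, histidine and serine, was rare, with 22, 15 and 17 expected counts in CD44 KO and 4, 1 and 0 in wild type (log2 fold change 3.46, SE 0.95, adjusted edgeR p 0.0862). Slc38a6 had 129, 296 and 164 CPM in CD44 KO and 166, 135 and 138 CPM in wild type (log2 fold change 0.43, SE 0.32, adjusted edgeR p 0.382). Slc38a3 was high only in wild type replicate 1, at 21.4 CPM, with 1.66, 1.38 and 4.27 CPM in CD44 KO and 0.754 and 0.835 CPM in the other wild type libraries. Its log2 fold change was -1.65 (SE 1.35, adjusted edgeR p 0.425) and 1.61 without that library.

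In the SLC6 family the abundant taurine and creatine carriers stood lower in 2 of the 3 CD44 KO libraries. Slc6a6, the taurine carrier, had 307, 113 and 130 CPM in CD44 KO and 276, 764 and 526 CPM in wild type. Slc6a8, the creatine carrier, had 92.9, 24.7 and 23.6 CPM in CD44 KO and 78.4, 255 and 167 CPM in wild type. In both genes CD44 KO replicate 1 was slightly above wild type replicate 1. The pan-macrophage marker sums had the same order, but only through Lyz2 (2309 and 1767 CPM). Single markers went both ways, with Adgre1 and Itgam higher and Cd68 and C1qa lower in CD44 KO replicate 1 than in wild type replicate 1. The log2 fold changes of Slc6a6 and Slc6a8 were -1.51 (SE 0.53) and -1.83 (SE 0.69), with adjusted edgeR p of 0.122 and 0.138. Without CD44 KO replicate 1 they were -2.11 and -2.79, and both were called (0.0379, in a range of 0.0223 to 0.307, and 0.028, in a range of 0.027 to 0.329). Slc6a9, the glycine carrier GLYT1, had 7.84, 17.4 and 7.96 CPM in CD44 KO and 3.71, 4.42 and 4.28 CPM in wild type (log2 fold change 1.42, SE 0.37, adjusted edgeR p 0.0803). Its groups did not overlap, and without CD44 KO replicate 1 it was called at 1.61 (0.0406, in a range of 0.0134 to 0.279), while without CD44 KO replicate 2 it stood at 0.93. Slc6a13, a carrier of GABA and taurine, had 99.9, 92.8 and 89.5 CPM in CD44 KO and 111, 45.5 and 74.7 CPM in wild type, and the libraries overlapped (log2 fold change 0.29, SE 0.31, adjusted edgeR p 0.553). The betaine carrier Slc6a12 and the little-known Slc6a21 stood at 0.24 (SE 0.59) and 0.82 (SE 1.55) on under 50 counts in any library.

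**Figure D4:**
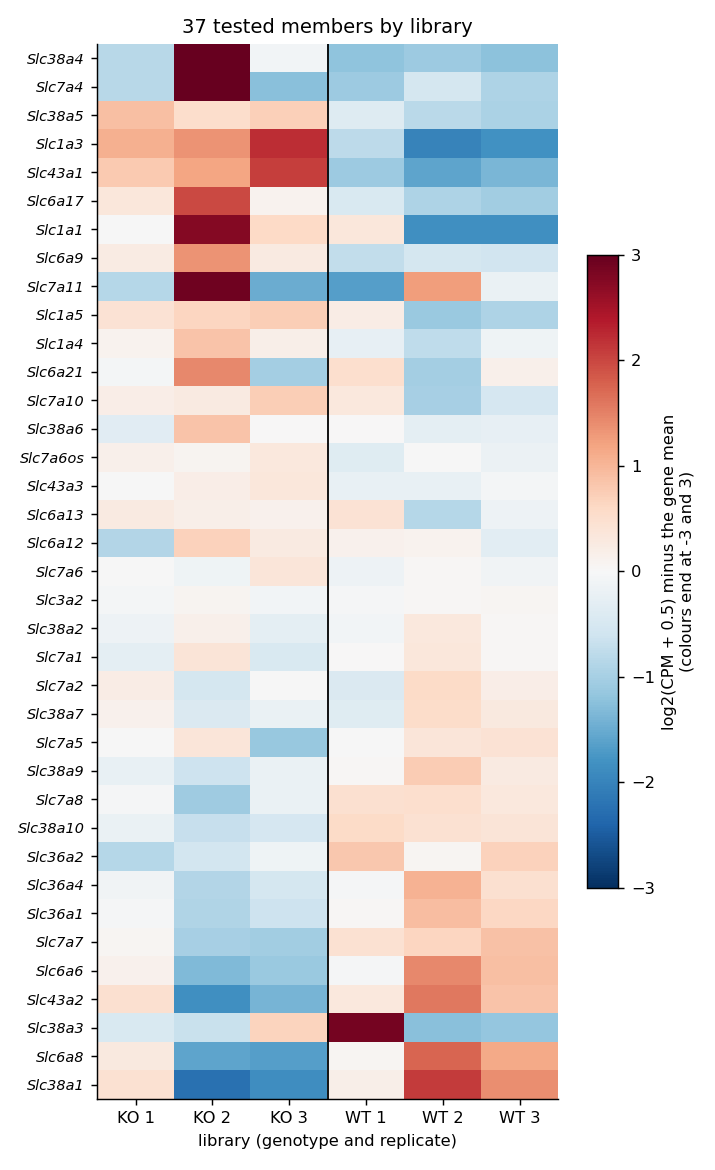
Log2(CPM + 0.5) of the 37 tested members minus the mean of each gene (colours end at -3 and 3), by library, with CD44 KO on the left and genes ordered by fold change. CD44 KO replicate 2 stands out in Slc38a4, Slc7a4, Slc1a1 and Slc7a11, wild type replicate 1 in Slc38a3, and CD44 KO replicate 1 is nearer to wild type than the other CD44 KO libraries in the rows at the bottom.

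A group of transporters was high in CD44 KO replicate 2 alone, the library with epididymis transcripts. In 5 of the 37 tested members (13.5%) that library was at least 3-fold above each of the other 5, against 2.83% of all genes tested. Slc7a4, a relative of the cationic carriers with no transport shown, had 94.8 CPM there, with 1.66 and 1.10 CPM in the other CD44 KO libraries and 1.297, 2.16 and 1.51 CPM in wild type. Slc38a4, the carrier SNAT4 known from liver, had 59.2 CPM there, with 1.07 and 2.14 CPM in the other CD44 KO libraries and 0.707, 0.808 and 0.678 CPM in wild type. These values set the fold changes. Slc7a4 had a log2 fold change of 4.29 (SE 1.76, adjusted edgeR p 0.159) with the library and -0.26 without it, and Slc38a4 had 4.82 (SE 1.64, adjusted edgeR p 0.117) and 1.12. Slc38a4 was called at 5.37 without CD44 KO replicate 1 (0.0417, in a range of 0.0417 to 0.319). Slc1a1 and Slc7a11 belong to the same 5, and the last of them, Slc6a17, a carrier of neutral amino acids in synaptic vesicles, had 6.07 CPM in CD44 KO replicate 2, with 1.60 and 1.295 CPM in the other CD44 KO libraries and 0.707, 0.377 and 0.313 CPM in wild type. Its log2 fold change was 2.67 (SE 0.77, adjusted edgeR p 0.092) and 1.63 without that library.

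**Figure D5:**
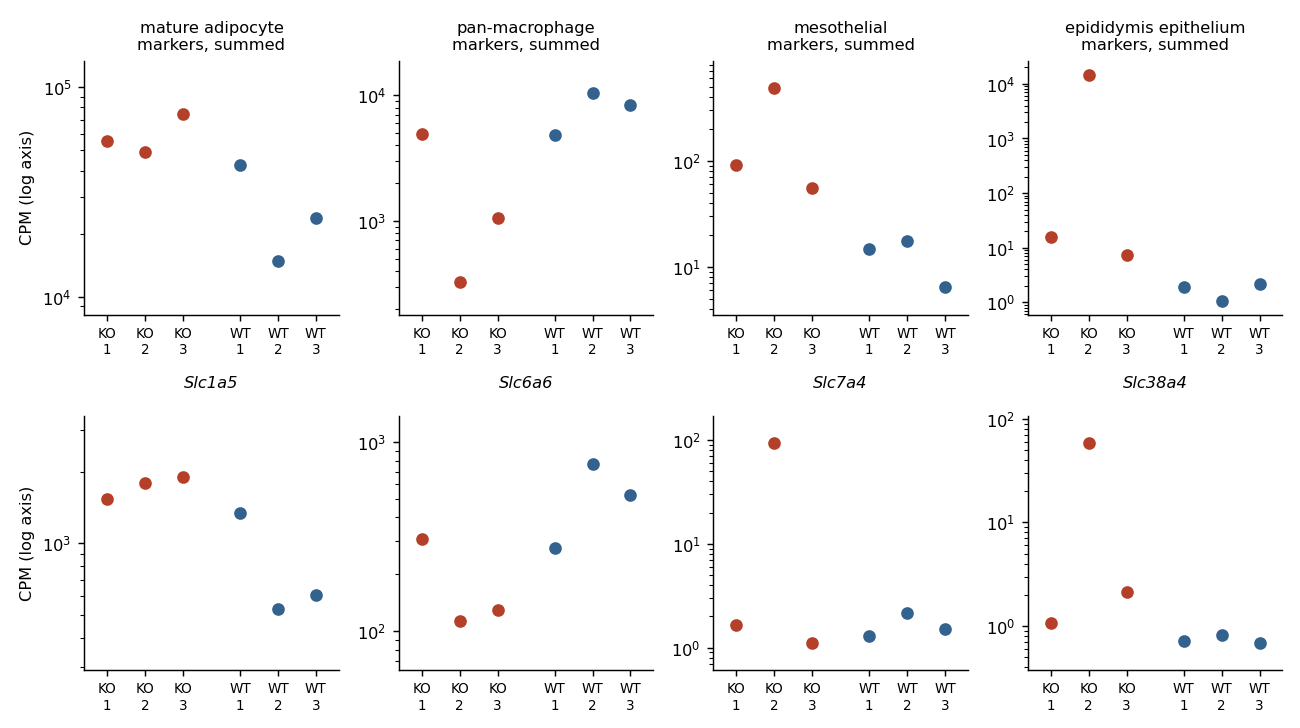
Summed CPM of 4 marker lists (top) and CPM of 4 transporters (bottom) in each library on log axes, CD44 KO in red on the left and wild type in blue on the right. The 6 libraries have the same order in Slc6a6 as in the summed macrophage markers, where CD44 KO replicate 1 is above wild type replicate 1 only through Lyz2. Slc7a4 and Slc38a4 are high in CD44 KO replicate 2, where the epididymis markers sum to 14620 CPM.

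The other 25 members were too rare to be tested. Of these, 2 (Slc6a3 and Slc38a8) had no count in any library, 14 had at most 8 counts in a library, and 9 reached at least 10. Slc3a1 and Slc7a9 encode the heavy and light chain of the cystine carrier of kidney tubules. Slc3a1 had 3, 10 and 26 expected counts in CD44 KO and none in wild type. That is at least 14.5-fold higher against a floor of 3 counts over the wild type group. It was called by DESeq2 and, with CD44 KO replicate 1 left out, by edgeR. Only CD44 KO gave Slc3a1 reads to be tested, so these calls could fall on the higher side alone. Slc7a9 had 21, 0 and 9 counts in CD44 KO and 0, 3 and 0 in wild type. Slc6a18, a neutral amino acid carrier of kidney, had 0, 98 and 1 counts in CD44 KO, so nearly all were in the library with epididymis transcripts, and 0 in wild type. Slc6a20a had 11, 6 and 3 counts in CD44 KO and 0, 1 and 0 in wild type, and its reads can be shared with the near copy Slc6a20b. The proline carrier Slc6a7 had 3, 3 and 3 counts in CD44 KO and 9, 20 and 5 in wild type, and the noradrenaline carrier Slc6a2 had 4, 4 and 2 in CD44 KO and 18, 9 and 2 in wild type. Slc6a14 (8, 0 and 0 in CD44 KO, 7, 6 and 12 in wild type), Slc6a19 (6, 23 and 0 in CD44 KO, 9, 7 and 3 in wild type) and Slc38a11 (5, 5 and 16 in CD44 KO, 5, 6 and 7 in wild type) overlapped between the genotypes.

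Genes around the transporters were examined in 6 lists. Of 11 tested enzymes of glutamine, glutamate and aspartate, edgeR called 2 higher (18.2%, against 1.74% of all genes tested) and 0 lower. DESeq2 called 3 higher and 2 lower, where it called 9.92% and 9.74% of all genes it adjusted. The 2 on the lower side were Got1 and Gfpt2, which make aspartate and glucosamine phosphate from glutamate and glutamine, at log2 fold changes of -1.30 and -1.17 by DESeq2 (DESeq2 adjusted p 0.0239 and 0.00987), and edgeR called Got1 with CD44 KO replicate 1 left out (0.0265). Asns, which makes asparagine from aspartate and glutamine, had 92.8, 97.2 and 114 CPM in CD44 KO and 36.8, 24.2 and 34.1 CPM in wild type, a log2 fold change of 1.68 (SE 0.20, adjusted edgeR p 0.0266). Gpt2, which makes alanine and 2-oxoglutarate from pyruvate and glutamate, had 206, 305 and 369 CPM in CD44 KO, against 129, 92.8 and 89.2 CPM in wild type (log2 fold change 1.502, SE 0.27, adjusted edgeR p 0.0481). The groups did not overlap in either gene. Both calls were lost without CD44 KO replicate 3, wild type replicate 2 or wild type replicate 3, and that of Gpt2 also without CD44 KO replicate 2 or wild type replicate 1. Over the 12 settings the adjusted p of Gpt2 ran up to 0.25 and that of Asns up to 0.189.

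Asns is also a target of ATF4, the factor that answers amino acid shortage, and it was the only edgeR call among 19 tested genes of that list. That is 1 higher (5.26%, against 1.74% of all genes tested) and 0 lower, with a median log2 fold change of 0.36. DESeq2 called 2 of the 19 higher and 3 lower, where it called 9.92% and 9.74% of all genes it adjusted. Aldh18a1 and Pycr1, both of proline synthesis, stood at -0.99 and -1.52 (adjusted edgeR p 0.0557 and 0.0653), and the secreted glycoprotein gene Stc2 stood at 2.01 (0.0851), and DESeq2 called all 3 (DESeq2 adjusted p 0.00215, 0.00252 and 0.00371). Of 26 tested genes of amino acid sensing by mTORC1 edgeR called 0 (1 higher and 5 lower at an unadjusted p under 0.05), with a median of -0.22 and 20 of the 26 (76.9%) negative. These are 3.85% and 19.2% of the list, against 16.3% and 14.7% of all genes tested, of which 47.8% were negative. In this list DESeq2 called 0 higher and 3 lower, against 9.92% and 9.74% of all genes it adjusted. The lysosomal anchor gene Lamtor1 had 99.7, 75.6 and 73.0 CPM in CD44 KO and 150, 124 and 158 CPM in wild type (log2 fold change -0.80, SE 0.19, adjusted edgeR p 0.069). Castor2, a relative of the arginine sensor gene Castor1, stood at -0.76 (0.0726). Castor1 itself overlapped between the genotypes at -0.235 (SE 0.27, adjusted edgeR p 0.57). When CD44 KO replicate 1 was left out Aldh18a1, Stc2, Lamtor1 and Castor2 were called (0.0281, 0.0495, 0.0311 and 0.0445), as was Stc2 when wild type replicate 1 was left out (0.0484), and over the settings the adjusted p of these 4 genes ran up to 0.26, 0.289, 0.273 and 0.26.

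The remaining 3 lists held no call by edgeR, and DESeq2 called 6 of their genes higher and 2 lower. Among all genes it adjusted DESeq2 called 9.92% higher and 9.74% lower. Of 12 arginine and ornithine enzymes 2 were higher and 2 lower at an unadjusted p under 0.05 (16.7% each, against 16.3% and 14.7% of all genes tested), with the ornithine aminotransferase gene Oat at 0.58 (adjusted edgeR p 0.0793) and Arg2 at 5.98 (0.0927), where Arg2 had 19.5 CPM in CD44 KO replicate 2 and at most 1.72 CPM elsewhere. Of 10 serine and glycine enzymes 3 (30.0%) were higher and 0 lower at that threshold, among them the serine racemase gene Srr at 0.98 (0.0985). Of 8 tested amino acid and peptide carriers of other families 1 was higher (12.5%) and 2 lower (25.0%) at that threshold. The vesicular glutamate carrier gene Slc17a7 had 3.21, 0.961 and 2.53 CPM in CD44 KO and 0.118, 0.108 and 0.261 CPM in wild type (log2 fold change 3.71, SE 0.70, adjusted edgeR p 0.0509). Arg2 and Slc17a7 had at most 5 counts in a wild type library, so only CD44 KO gave them enough reads to be tested. The lysosomal carriers Slc66a1, for cationic amino acids, and Slc15a3, for histidine and peptides, stood at -0.82 (0.105) and -3.35 (0.111), and Slc15a3 had 25.2, 1.08 and 3.95 CPM in CD44 KO and 59.5, 148 and 101 CPM in wild type. When CD44 KO replicate 1 was left out Arg2, Srr, Slc17a7 and Slc15a3 were called (0.0491, 0.0412, 0.0407 and 0.0209), and over the settings their adjusted p ran up to 0.272, 0.298, 0.236 and 0.297.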

How the data were processed

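RNA of 6 epididymal fat samples was analysed from the deposited table of genes. Per the labels, oligo(dT)-selected RNA was prepared with a NEBNext Ultra kit for Illumina sequencing. The submitters' processing notes list RSEM, HISAT2, DESeq2 and StringTie 1.3.1 with no role for each. Build, annotation and strandedness: not given in the sources used here. The authors deposited expected counts, which are estimated and unscaled (between 7.57% and 8.3% of a library's genes had a value with decimals), and FPKM rounded to 2 decimals. A second table that the authors deposited holds the same counts rounded, a log2 fold change of mean FPKM, and p-values with adjusted p-values.

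After rounding, edgeR 4.0.16 (R 4.3.3) was run on the expected counts: filterByExpr with the group, TMM scaling, and the quasi-likelihood F-test with robust estimation, CD44 KO over wild type, adjusted by Benjamini-Hochberg over 13829 genes, with a threshold of 0.05. The SE is the absolute log2 fold change over the square root of F, and 95% intervals use the moderated degrees of freedom. CPM are TMM-scaled. Floors of 3 counts cover counting error only, since PCR reads are not independent molecules. DESeq2 1.42.0 was an alternative. The fit was tested on simulated data. Positions are from GENCODE M21, matched by identifier for 99.75% of the genes. Promoters from RefSeq matched 44 of the 62 members by symbol. The members, gene lists and tests were chosen with earlier results of these data known. Members named are those called, those with an unadjusted p under 0.05 and no overlap, the 10 of highest FPKM, 21 by name, and untested ones with at least 10 counts. The other tested members were named after their values were seen. From each list up to 4 genes of lowest p were eligible.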

Additional observations from a re-analysis of the deposited data

How the results depend on the processing

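The calls of Slc43a1 and Slc1a3 were kept with RLE size factors, with no filter on low counts, without robust estimation and with DESeq2. DESeq2 called 8 members higher and 8 lower, against 2 and 0 by edgeR, and in the 6 lists it called 10 genes higher and 10 lower, against 2 and 0. Among all genes DESeq2 adjusted, 9.92% were called higher and 9.74% lower. With no filter on low counts 1 list gene was called higher, Gpt2 being lost. The replicate numbers share only a number: with the number as a block edgeR called 0 members, 0 list genes and 0 genes in all in either direction, the median of the members was 0.036, and Slc38a3 and Slc6a21 changed sign (0.036 and -0.08). Same-numbered libraries did not deviate together (correlation of deviations from the group means -0.45, -0.15 and -0.09 for replicates 1 to 3), and CD44 KO replicate 1 correlated best with wild type replicate 2 (0.34). Over the 6 fits that each left out 1 library, 0 to 5 members were called higher and 0 to 7 lower, 0 to 7 list genes higher and 0 to 8 lower, and the median of the members ran from -0.24 to 0.30. The cause of these changes was not tested. Leaving out 1 library changed these signs, with the lowest and highest log2 fold change over the 6 fits: Gldc (-1.34 to 5.73), Slc6a12 (-0.24 to 0.64), Slc6a21 (-1.08 to 1.55), Slc7a11 (-1.80 to 2.63) and Slc7a4 (-0.26 to 4.85), negative without CD44 KO replicate 2, Slc7a6 (-0.004 to 0.266), negative without CD44 KO replicate 3, Slc38a3 (-2.33 to 1.61), positive without wild type replicate 1, and Slc7a2 (-0.49 to 0.017), positive without wild type replicate 2. Of the 25 untested transporters 16 had under 10 counts in every library, where differences were not detectable at this depth.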
